A study of Sus scrofa with 8 samples.

Results

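The microRNAs miR-140 and miR-455 were followed as 4 mature strands, ssc-miR-140-5p, ssc-miR-140-3p, ssc-miR-455-5p and ssc-miR-455-3p, in the corpus luteum of the pig, the ovarian gland that secretes progesterone. The strands were chosen by name: every entry of the array design that is not a control and is named miR-140 or miR-455, whatever its species prefix, was taken, which gave 4 of 686 targets, all porcine. The choice was made with earlier results of these arrays known, so the differences below are descriptions and the p-values are the output of a fit over the whole array. Luteal tissue came from crossbred gilts of a single commercial herd, aged 6 to 8 months, on day 14 of the estrous cycle without insemination (cyclic, 4 samples) or on day 14 of pregnancy after insemination at the second estrus (pregnant, 4 samples). Total RNA of each sample, 100 ng at an RNA integrity number over 8, carried the dye Cy3 and was hybridised to its own 1-colour Agilent miRNA array, so n is 4 per group throughout. The comparison asks which miRNAs differ between luteal tissue in early pregnancy and on the same day of the cycle. The tissue is a mixture of steroidogenic, endothelial, stromal and blood cells, in which fewer cells of a type and less RNA per cell cannot be told apart.

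A miRNA gene is transcribed into a hairpin, from which Drosha and Dicer cut a duplex of a 5p and a 3p strand. An Argonaute protein keeps 1 strand of the duplex and the other is usually degraded, but for some hairpins both strands are loaded and each represses its own set of messenger RNAs. miR-140 and miR-455 are best known from cartilage, where both are described as targets of the transcription factor SOX9 and miR-140 restrains the matrix protease ADAMTS5. In the RefSeq annotation of the assembly Sscrofa11.1, MIR140 lies within WWP2, a gene for a ubiquitin ligase, and MIR455 within COL27A1, a fibrillar collagen gene. Each arm of a hairpin shares its transcript with the other, while the 4 strands have different names and probes on the array.

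Every array carried 13720 spots for the 686 targets, and the 75th percentile of intensity over the targets detected on all arrays, by which each array was scaled, was 189 to 316. Slide 1 held only pregnant tissue (replicates 1 and 2), slide 2 only cyclic tissue (replicates 1 and 2), and slide 3 the last 2 replicates of each group. Slides 2 and 3 shared a scan day, which slide 1 did not. Of the 212 targets detected on at least 4 arrays, 24 passed limma's test (11 higher and 13 lower in pregnancy). The share of higher calls moved with the scaling, to 14 of 23 with quantile normalization, 55 of 62 with the 75th percentile over all probes, 5 of 16 with total gene signal and 3 of 9 without scaling. The count was 81 without cyclic replicate 1, the array that stood apart from its group in several results below. All values below are log2 of the scaled intensity unless another unit is named. A value of 0 is thus the array's 75th percentile, and since probes bind unequally, the level of 1 strand is not set against that of another.

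All 4 strands passed the detection filter, but not equally well. Each was measured by 2 probes with 10 spots a probe, and the probe with the higher mean signal was used. For ssc-miR-140-3p, ssc-miR-140-5p and ssc-miR-455-3p, both probes had 100% of their spots well above background on all 8 arrays. Intensities of the probe used were 219 to 413 for ssc-miR-140-3p, 80.7 to 198 for ssc-miR-140-5p and 44.5 to 82.35 for ssc-miR-455-3p. Replicate spots of these probes varied by at most 11.3% (coefficient of variation). ssc-miR-455-5p was dim, with intensities of 7.0 to 17.9 and a coefficient of variation of 9.87% to 26.8%. It was detected on 7 arrays, with 0% of its spots well above background on pregnant replicate 4 and 50% on cyclic replicate 1. Its other probe was detected on 1 array and lay at the floor on 7, so the account of this strand rests on 1 probe.

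The 5p strand of miR-140 read lower on average in pregnancy. ssc-miR-140-5p read −1.43, −0.70, −0.45 and −0.67 on cyclic replicates 1 to 4, and −1.43, −1.10, −1.51 and −1.23 on pregnant replicates 1 to 4. Cyclic replicates 2, 3 and 4 lay above all pregnant arrays, whereas cyclic replicate 1 lay among the pregnant arrays, so the groups overlapped through that array alone. The means were −0.81 ± 0.43 in the cycle and −1.32 ± 0.19 in pregnancy (SD, n = 4). Pregnant tissue thus stood at 0.706 of the cyclic level (difference −0.50 ± 0.20, SE), which did not pass limma's test (adjusted p = 0.125, Benjamini-Hochberg over 212 targets). The other probe gave −0.54 ± 0.20 (adjusted p = 0.0993). Without cyclic replicate 1 the difference was −0.71 and passed (limma, adjusted p = 0.00331, within a range of 0.00331 to 0.425 over 25 other settings). In that fit 81 of the 212 targets passed, beside 24 with all arrays, so the pass is not particular to this strand.

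The 3p strand of the same hairpin showed a difference close to 0. ssc-miR-140-3p read −0.06, 0.25, 0.52 and 0.39 on cyclic replicates 1 to 4, and 0.16, 0.37, 0.07 and 0.53 on pregnant replicates 1 to 4. The arrays were interleaved, with cyclic replicate 1 lowest and pregnant replicate 4 highest. The means were 0.27 ± 0.25 in the cycle and 0.28 ± 0.21 in pregnancy (SD, n = 4), a difference of 0.01 ± 0.15 (SE, limma, adjusted p = 0.967). Its other probe read −0.10 ± 0.18, so the 2 probes differed in sign, both within 1 SE of 0. Cyclic replicate 1 was the lowest cyclic array for both arms of miR-140.

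**Figure D1:**
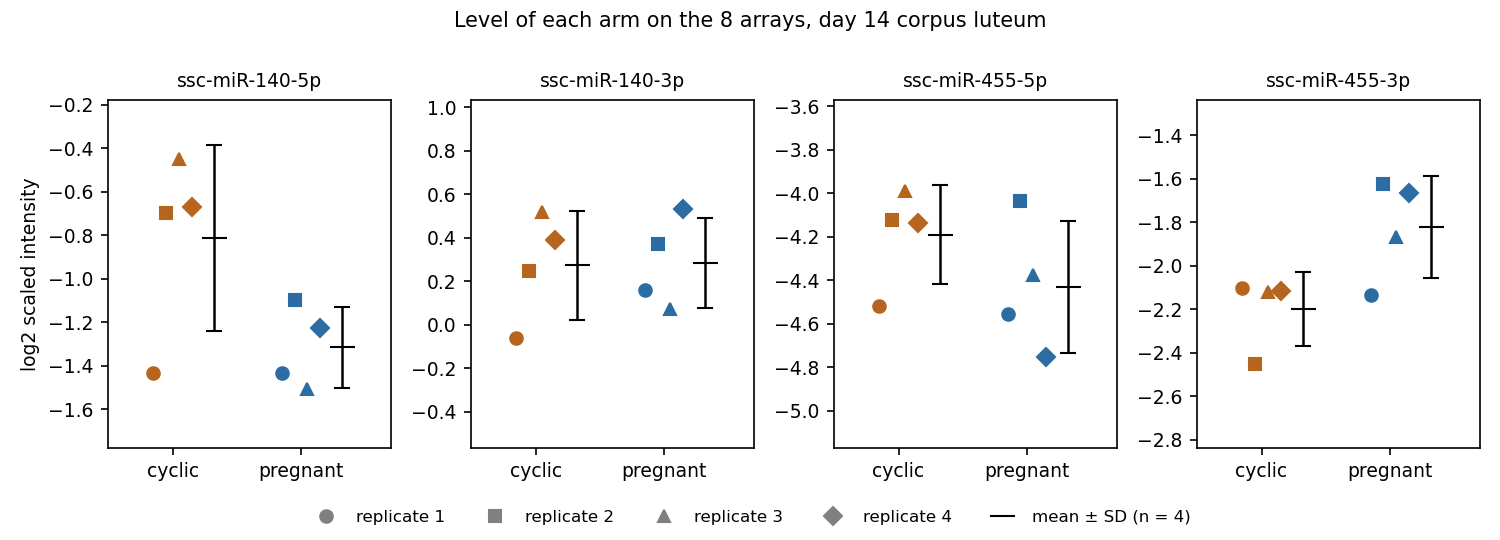
Level of each strand (log2 scaled intensity, vertical axis) on the 4 cyclic and 4 pregnant arrays; marker shapes give the replicate number, black bars the mean and SD. For ssc-miR-140-5p, 3 cyclic arrays lie above all pregnant ones and cyclic replicate 1, at −1.43, lies among them; for ssc-miR-455-3p, 3 pregnant arrays lie above all cyclic ones.

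The 3p strand of miR-455 read higher on average in pregnancy, opposite in sign to miR-140-5p. ssc-miR-455-3p read −2.10, −2.45, −2.12 and −2.12 on cyclic replicates 1 to 4, and −2.13, −1.62, −1.87 and −1.67 on pregnant replicates 1 to 4. Pregnant replicates 2, 3 and 4 lay above all cyclic arrays, and pregnant replicate 1 lay with the cyclic ones. The means were −2.20 ± 0.17 in the cycle and −1.82 ± 0.23 in pregnancy (SD, n = 4). The level in pregnancy was 1.30-fold that of the cycle (0.37 ± 0.16, SE), which did not pass (limma, adjusted p = 0.135), and the other probe gave 0.35 ± 0.17. With each array scaled to the 75th percentile over all probes it passed (0.67, limma, adjusted p = 0.0162, within a range of 0.0162 to 0.600 over 25 other settings), but that scaling moved the median of all 212 targets by 0.30 and brought ssc-miR-140-5p to −0.20. Under it 62 of the 212 targets passed, 55 of them higher.

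The dim 5p strand of miR-455 read lower in pregnancy on average, with wide overlap. ssc-miR-455-5p was −4.52, −4.12, −3.99 and −4.14 on cyclic replicates 1 to 4, and −4.56, −4.03, −4.38 and −4.75 on pregnant replicates 1 to 4. Pregnant replicates 1 and 4 lay below all cyclic arrays, but pregnant replicate 2 was the second highest of the 8. The means were −4.19 ± 0.23 and −4.43 ± 0.30 (SD, n = 4). The difference of −0.24 ± 0.19 (SE) did not pass (limma, adjusted p = 0.423), and its sign turned under scaling over all probes (0.06). The lowest value belongs to the array on which no spot of the probe was well above background, and the floor of the scale is −4.85.

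Of the 4 strands, 0 passed limma's test after adjustment, where 11.3% of the 212 tested targets did. At an unadjusted p under 0.05, 2 of the 4 counted, ssc-miR-140-5p and ssc-miR-455-3p, against 34.4% of all tested targets. None of the 4 had groups that did not overlap (0 of 4, against 17% of tested targets). The median difference of the 4 was −0.11, beside 0.00 over all tested targets, and the strands fell on both sides of 0.

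Relative to its 5p strand, the 3p strand of miR-140 read higher in pregnancy, a call that passed in 15 of 25 other settings. Those settings are not all separate checks. Under scaling over all probes, no scaling, a lower floor, other detection filters or no trend, the relative difference stayed at 0.51. By itself the 3p strand differed by 0.01 and the 5p strand by −0.50. The relation of the arms was examined as the log2 ratio of the 3p to the 5p signal on the same array. This measure was added after the strands' values were seen, rests on those same values and is no independent support for them. Its size reflects the probes, so only its change is described. A factor common to an array divides out of it except where a strand reaches the floor: without scaling, the difference given below for miR-140 was again 0.51, while that for the dimmer miR-455 was 0.50. For miR-140 the ratio was 1.37, 0.94, 0.97 and 1.06 on cyclic replicates 1 to 4, and 1.59, 1.47, 1.58 and 1.76 on pregnant replicates 1 to 4. All 4 pregnant arrays lay above all 4 cyclic ones, and cyclic replicate 1 was the cyclic array nearest to them. The ratio was 1.43-fold higher in pregnancy (means 1.09 ± 0.20 and 1.60 ± 0.12, SD, n = 4; difference 0.51 ± 0.13, SE). In the fit over the 20 hairpins with both arms tested, this difference passed (limma, adjusted p = 0.0259). Each of the 4 ways to pair a 3p probe with a 5p probe of miR-140 gave groups that did not overlap, with differences of 0.41 to 0.56. These pairings reuse the same probes on the same arrays and are not separate tests. Over the 20 hairpins, 15% of the ratios passed and 25% had groups that did not overlap.

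The ratio of miR-455 was also higher on average in pregnancy, but did not pass. It was 2.42, 1.67, 1.87 and 2.02 on cyclic replicates 1 to 4, and 2.42, 2.41, 2.51 and 3.09 on pregnant replicates 1 to 4. Pregnant replicates 1, 3 and 4 lay above all cyclic arrays, and cyclic replicate 1 read as high as pregnant replicate 2. The difference was 0.61 ± 0.21 (SE; means 1.99 ± 0.32 and 2.61 ± 0.32, SD, n = 4), 1.53-fold (limma, adjusted p = 0.0667). The 5p strand was dim here, and pregnant replicate 4, which gave the highest ratio, had no 5p spot well above background. Without that array the difference was 0.45 (limma, adjusted p = 0.130), and without cyclic replicate 1 it was 0.75 and passed (limma, adjusted p = 0.0187), within a range of 0.0187 to 0.269 over 24 other settings. Without cyclic replicate 1, 7 of the 20 hairpin ratios passed, beside 3 of 20 in the main fit. With normexp background correction the difference was 0.20.

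**Figure D2:**
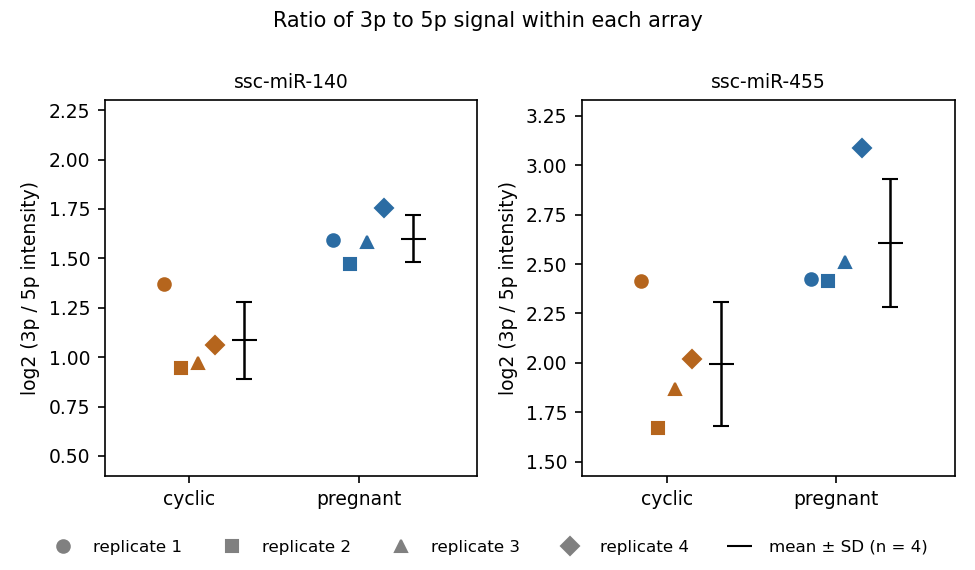
Log2 ratio of the 3p to the 5p signal within each array (vertical axis) for miR-140 and miR-455, by group; marker shapes give the replicate number, black bars the mean and SD. For miR-140 the pregnant arrays, from 1.47 to 1.76, lie above all cyclic arrays, the highest of which is cyclic replicate 1 at 1.37.

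Among the 20 hairpins, 3 ratios passed (15%) and 5 had groups that did not overlap (25%). The ratio of miR-140 was the 1 that passed upward, with ssc-miR-345 (−1.38) and hsa-miR-125a (−1.55) passing downward. A higher ratio without overlap of the groups was not particular to miR-140. It was also seen for ssc-miR-126 (0.25, limma, adjusted p = 0.0835) and ssc-miR-532 (0.32, limma, adjusted p = 0.0722), which did not pass. The mean ratio was higher in pregnancy in 8 hairpins and lower in 12, with a median change of −0.04. The ratio of ssc-miR-202, a gonad-enriched miRNA, differed by 1.02 ± 0.32 (SE, limma, adjusted p = 0.0590), but its 5p strand was detected on 5 of 8 arrays, so this value and that of miR-455 include arrays whose 5p signal was not well above background. The call for miR-140 did not hold in every setting: of the 8 fits that left out an array, those without cyclic replicate 1 (0.61) and pregnant replicate 2 passed, and the adjusted p lay between 0.00225 and 0.0894 over 25 other settings, in all of which the ratio was higher in pregnancy. Without cyclic replicate 1, 7 of the 20 ratios passed, and 3 without pregnant replicate 2.

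**Figure D3:**
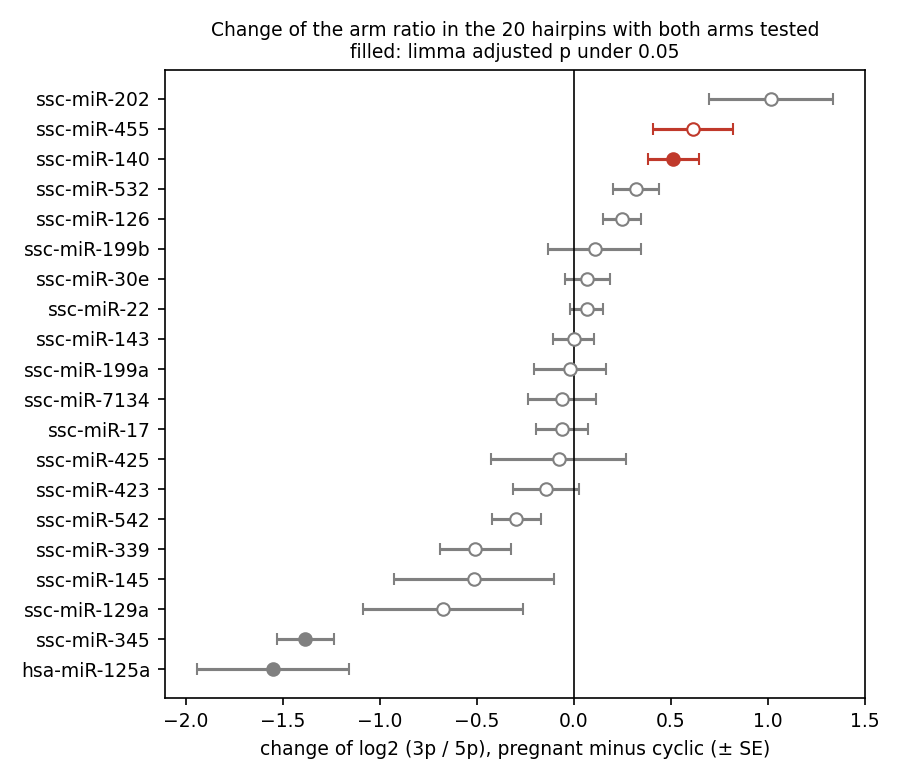
Change of the log2 ratio of 3p to 5p signal between pregnant and cyclic arrays (horizontal axis, bars are SE) for the 20 hairpins with both arms tested; filled points had an adjusted p under 0.05, and miR-140 and miR-455 are in red. miR-140 (0.51) and miR-455 (0.61) lie on the side of a higher ratio in pregnancy, next to miR-202 (1.02), and miR-345 and miR-125a at the other end.

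Slide 3 was the one slide with both groups, 2 arrays of each. There ssc-miR-140-5p differed by −0.81 (limma, adjusted p = 0.0749), ssc-miR-140-3p by −0.15, ssc-miR-455-5p by −0.50 and ssc-miR-455-3p by 0.35. The ratio of miR-140 differed by 0.65 on that slide (adjusted p = 0.0884) and by 0.58 over the arrays of the shared scan day (adjusted p = 0.0816). For miR-455 the ratios differed by 0.85 (adjusted p = 0.0682) and 0.80 (adjusted p = 0.0816). No comparison was possible within slide 1 or slide 2. Neither passed there. The values of miR-455 on slide 3 and over the shared scan day include pregnant replicate 4, whose 5p strand was not well above background. For miR-140, with both arms well above background throughout, the difference of the ratio was 0.65 on the shared slide and 0.51 over all arrays. On slides 1 and 2, slide and group cannot be told apart.

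Within the groups, the deviations of the arms of miR-140 were correlated, just short of the threshold after adjustment and past it in 4 of 19 other settings. Those of miR-455 had a low r in the main processing and passed in 0 of 19 other settings. With the group means removed, so that the comparison of the groups is not used, the deviations of ssc-miR-140-5p and ssc-miR-140-3p had Pearson's r = 0.895 (exact permutation within groups, 2-sided, p = 0.00868, n = 8; adjusted p = 0.0521 over the 6 pairs of strands). Spearman's rho was 0.833 (exact permutation p = 0.0313), and r was 0.816 without cyclic replicates 3 and 4, the arrays farthest from the median of the 5p strand. Without cyclic replicate 1, the lowest cyclic array for both arms, r was 0.842 (exact permutation, adjusted p = 0.25). With deviations taken from the means of slide and group, r was 0.852 (exact permutation, adjusted p = 0.75, with too few pairings to pass). On the arrays' own values, with group means kept, r was 0.653 (exact permutation, adjusted p = 0.260). For the arms of miR-455, r was 0.111 (exact permutation p = 0.806, n = 8; adjusted p = 0.806) and rho 0.0476 (exact permutation p = 0.964), with r = 0.0873 without pregnant replicates 1 and 4. With deviations from slide and group means it was 0.102. With normexp background correction the r of miR-455 was 0.886 (exact permutation, adjusted p = 0.0677) and that of miR-140 0.952, and without scaling of the arrays they were 0.740 and 0.957. Without scaling, a brightness common to an array stays in both arms, so that r cannot be told apart from it. The normexp correction adds an offset of 50 to each signal before scaling, while the intensities of ssc-miR-455-5p were 7.0 to 17.9. Why r rose with normexp was not tested.

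Across the 20 hairpins the median r between the arms was 0.703. By this measure miR-140 ranked 4 and miR-455 ranked 17. The median over all 22366 pairs of tested targets was 0.0605. Between the hairpins, the strongest pair was ssc-miR-140-5p with ssc-miR-455-5p (r = 0.662, exact permutation p = 0.0868, n = 8; adjusted p = 0.260), with rho = 0.857 (exact permutation p = 0.0365) and r = 0.565 without cyclic replicates 3 and 4. The remaining 3 pairs had r from 0.133 to 0.385 and adjusted p of 0.641 to 0.806 (exact permutation). This ranking was not stable. Without cyclic replicate 1 and pregnant replicate 3, ssc-miR-140-3p had r = 0.871 with ssc-miR-455-3p and −0.0420 with ssc-miR-455-5p. Without cyclic replicates 3 and 4, ssc-miR-140-5p had r = −0.0888 with ssc-miR-455-3p.

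**Figure D4:**
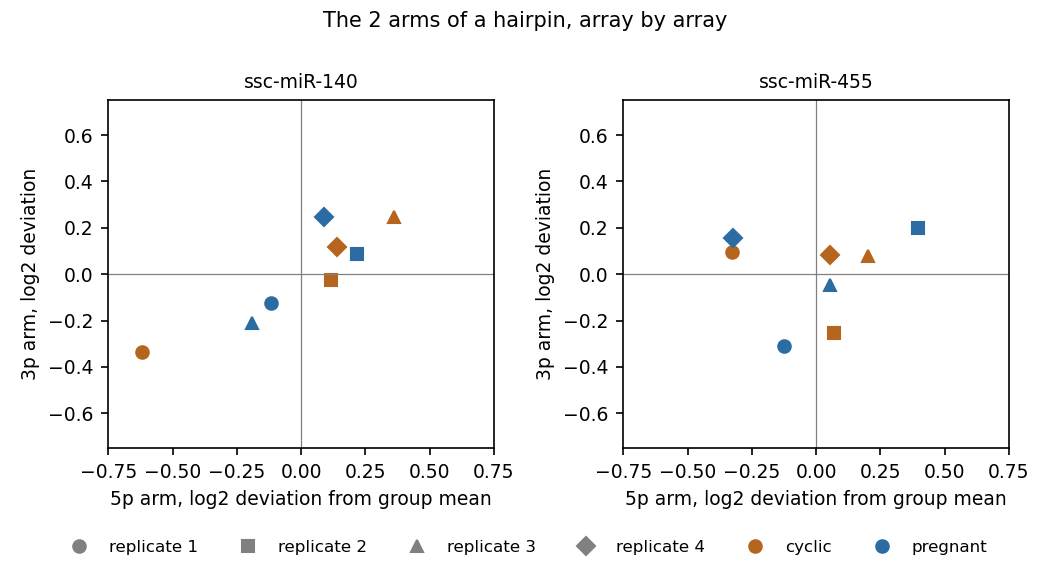
Deviation of each array from its group mean (log2) for the 5p strand (horizontal) and the 3p strand (vertical) of miR-140 and miR-455; colours give the group and shapes the replicate number. The points of miR-140 follow a rising line (r = 0.895), with cyclic replicate 1 lowest on both axes, and those of miR-455 are scattered (r = 0.111; 0.886 with normexp background correction, not drawn).

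The targets outside the 4 strands whose deviations followed them most closely over the 8 arrays were taken by rank, as a description. For ssc-miR-140-5p these were ssc-miR-193a-3p (r = 0.925), ssc-miR-574 (r = 0.918) and ssc-miR-4338 (r = 0.915). For ssc-miR-140-3p they were ssc-miR-27a (r = 0.928), ssc-miR-193a-3p (r = 0.917) and ssc-miR-4338 (r = 0.912), so 2 of the 3 names recurred for both arms. Of these, ssc-miR-4338 was lower in pregnancy (−1.07, limma, adjusted p = 0.0302; it passed in 13 of 25 other settings), while ssc-miR-27a (−0.49), ssc-miR-193a-3p (−0.42) and ssc-miR-574 (−0.27) did not pass. For ssc-miR-455-3p the list was ssc-miR-99b (r = 0.864), ssc-miR-181a (r = 0.740) and ssc-miR-202-5p (r = 0.724), with differences of 0.45, 0.37 and −0.28, none of which passed. ssc-miR-455-5p was followed by hsa-miR-208a-5p (r = 0.886), ssc-miR-2483 (r = 0.842) and ssc-miR-9788-3p (r = 0.826), of which hsa-miR-208a-5p was detected on 5 arrays and lay at the floor on 2. Under quantile normalization the r of these targets was 0.749, 0.649 and 0.565, at ranks 1, 6 and 15. Of these 3, ssc-miR-9788-3p was lower in pregnancy (−0.72, limma, adjusted p = 0.0300), a call that held in 10 of 25 other settings. The median r of each strand with all 208 other targets was between −0.0791 and 0.175. Other ranks also moved under quantile normalization, to 10 for ssc-miR-574 with ssc-miR-140-5p and 9 for ssc-miR-181a with ssc-miR-455-3p. There ssc-miR-99b kept rank 1 for ssc-miR-455-3p.

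Other miRNAs described in cartilage cells or as acting on SOX9 showed no common shift. Of 32 entries on the array for 21 names, 17 were tested, 0 passed in either direction (limma), 11 had positive and 6 negative differences, and the median was 0.04. The 4 brightest were ssc-miR-22-3p (0.10 ± 0.11), ssc-miR-23b (0.21 ± 0.13), ssc-miR-26a (0.04 ± 0.11) and ssc-miR-27a (−0.49 ± 0.21). At an unadjusted p under 0.05, 3 of the 17 counted, beside 34.4% of all tested targets. They were ssc-miR-27a and ssc-miR-199a-3p (−0.53 ± 0.20), both lower, and ssc-miR-320 (0.52 ± 0.16), higher. Among miRNAs described as acting on TGF-beta receptors or SMAD proteins, the pathway that miR-140 and miR-455 are also reported to target, 25 of 50 entries were tested, 1 was higher, 0 were lower, 6 counted at an unadjusted p under 0.05, and the median was −0.11. Some entries stand on both lists. The higher one was hsa-miR-181a-5p (0.55 ± 0.14, limma, adjusted p = 0.0300), which passed in 10 of 25 other settings. The porcine entry ssc-miR-181a, on the same list, read 0.37 ± 0.16 and did not pass (limma, adjusted p = 0.135). The brightest of that list were ssc-miR-21 (−0.37 ± 0.17), ssc-miR-26a, ssc-miR-27a and ssc-miR-29a (−0.31 ± 0.14), none of which passed. The counts of these lists, 0 of 17 and 1 of 25, stand beside 11.3% over all tested targets.

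The tissue was checked with marker miRNAs, taken as the log2 of the summed signal of a list, in which the brightest entries weigh most. The sums for gonad, leukocytes and fibroblasts set cyclic replicates 2, 3 and 4 apart from the pregnant arrays, as ssc-miR-140-5p did. The entries within each of these lists did not all move alike. Both strands of miR-202 were tested. Their summed signal was −0.89, −2.25, −2.17 and −2.07 on cyclic replicates 1 to 4 and −1.36, −0.67, −1.45 and −1.54 on pregnant replicates 1 to 4. Here cyclic replicates 2, 3 and 4 lay below all pregnant arrays and cyclic replicate 1 among them, with ssc-miR-202-3p at 0.74 ± 0.33 (SE, limma, adjusted p = 0.142). The dimmer ssc-miR-202-5p went the other way (−0.28 ± 0.17, SE, limma, adjusted p = 0.292). With mean levels of −1.78 for the 3p and −4.43 for the 5p strand, the sum mostly reflects the 3p strand. By contrast, 0 of the 5 entries for muscle and 0 of the 2 for liver miRNAs were detected on any array. The summed signal of the 4 tested leukocyte entries (of 8 on the array), which include hsa-miR-223-3p of neutrophils and monocytes, was −1.46, 0.30, 0.45 and 2.06 on cyclic replicates 1 to 4 and −1.11 to −0.92 on the pregnant arrays. Cyclic replicate 1 thus lay below all pregnant arrays and the other cyclic replicates above them. Of these 4 entries 0 passed, with hsa-miR-223-3p at −2.29 ± 0.76 (SE, limma, adjusted p = 0.0768) and ssc-miR-142-5p at −0.65 ± 0.45. The others differed little, with mmu-miR-342-3p at −0.10 ± 0.20 and ssc-miR-150, near the floor, at 0.01 ± 0.20. For the 5 tested fibroblast entries (of 6), the miR-199 and miR-214 strands, the sums were 1.84, 2.21, 3.09 and 2.61 on cyclic replicates 1 to 4 and 1.95 to 2.11 on the pregnant arrays, with 0 passing. Cyclic replicates 2, 3 and 4 again lay above all pregnant arrays, as they did for ssc-miR-140-5p, and cyclic replicate 1 was lowest of the 8. Of the fibroblast entries 4 had negative differences, down to −0.53, and ssc-miR-214 a positive one (0.11 ± 0.20). The endothelial sums overlapped between the groups (2.76 to 2.99 and 2.92 to 3.24), as did those for smooth muscle and pericytes (0.32 to 0.91 and 0.36 to 0.76) and for erythroid cells (0.38 to 2.85 and 0.37 to 2.63). The part of these cell types in the levels of miR-140 was not tested.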

How the data were processed

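Spot intensity was taken from the deposited scanner output, background-subtracted and detrended by Agilent Feature Extraction (10.7.3.1 per the file headers, 10.7 per the submitters' processing notes). The authors' deposited table of centred log2 values (named as a score for cyclic replicates 2 and 4, where 3 cells above 100 were read as missing) was an alternative. Over 2806 bright spots its values followed scanner log2 differences in the same direction (slopes 0.843 to 0.983, r 0.878 to 0.974). They are centred per spot, the scaling between arrays stays unknown, and column medians were 0.0108, −0.000283, 0.000689 and −0.000205 for cyclic and −0.000302, 9.45e-05, −9.45e-05 and 0.0318 for pregnant replicates 1 to 4.

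Control spots (715) and outlier spots (384 to 453 per array) were dropped, spots of a probe averaged, and signals divided by the array's 75th percentile over the 166 targets detected on all arrays, floored at 0.0346 (log2 −4.85, the 1st percentile of detected probes) and logged. A probe was detected when 0.5 of its spots were well above background. The brightest probe stood for a target. limma 3.58.1 (R 4.3.3, data.table version 1.17.8, lmFit and eBayes with trend, 2-sided, threshold 0.05) compared the groups over 212 targets and, for arm ratios, 20 hairpins. It was tested on simulated data. Correlations used exact permutation. Figures used Python 3.11.15 and matplotlib 3.10.9.

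The strands and lists were chosen with earlier results of these data known. Named targets were the 4 strands, the 3 most alike for each, and of each list those that passed and the 4 brightest. The cartilage entries named for an unadjusted p were picked after their values were seen. Arm ratios, the scan day alone and correlations with group means kept were added after seeing the data. The labels call the samples biological replicates. Seeds were not compared. The number of arrays limits precision. No sequences were used here.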

Additional observations from a re-analysis of the deposited data

Results flagged for a closer look

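On cyclic replicate 2, ssc-miR-455-3p read −2.45, far from the other 3 cyclic arrays, which lay within −2.12 to −2.10. On pregnant replicate 4, the log2 ratio of the 3p to the 5p signal of miR-455 was 3.09, far above the other pregnant arrays (2.41 to 2.51); its 5p strand was not well above background there. Both were found by the gap of the extreme sample to its neighbour relative to the range of the 4 samples, which chance alone exceeds in about 1 of 20 groups, and 12 groups were examined.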

How the results depend on the processing

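Of the 25 other settings, the difference of ssc-miR-140-5p was negative in all 25 and that of ssc-miR-455-3p positive in all 25. ssc-miR-140-3p, close to 0, turned negative in 8, namely without scaling (−0.031), with total gene signal (−0.045), with the mean of all probes (−0.043), with slide as a block or slide 3 alone (−0.15), and over the fits that left out an array it ran from −0.10 to 0.093. ssc-miR-455-5p turned to 0.060 with scaling over all probes, and could not be fitted among targets detected on all 8 arrays. The count of strands that passed was 1 with scaling over all probes (ssc-miR-455-3p, 0.67) and 0 to 1 when an array was left out, with ssc-miR-140-5p running from −0.71 (without cyclic replicate 1) to −0.38. The arm ratio of miR-140 did not pass with slide as a block (0.65, adjusted p = 0.0733), on slide 3 alone (0.65), within the scan day of both groups (0.58) or with a replicate block (0.51, adjusted p = 0.0644), and ran from 0.46 to 0.61 when an array was left out. The arm ratio of miR-455 passed with the mean of all probes (0.50) and scan day as a block (0.80), and ran from 0.45 to 0.75 when an array was left out. With the mean of all probes 7 of the 20 ratios passed, and with scan day as a block 5. That mean takes in the ssc-miR-455-5p probe detected on 1 array. The arm correlation of miR-140 passed with normexp background correction, offset 50 (0.952), and without scaling (0.957), was lower and did not pass with scaling over all probes (0.798), the authors' table (0.767) and group means kept (0.653), and ran from 0.842 to 0.970 with an array left out. That of miR-455 was 0.886 with normexp and 0.740 without scaling, neither passing, turned negative with scaling over all probes (−0.0524), with total gene signal (−0.146) and with group means kept (−0.264), and ran from −0.327 to 0.412 with an array left out. The causes were not tested. Among other named targets, the sign turned for ssc-miR-202-5p (0.022) and ssc-miR-574 (0.032) with scaling over all probes, ssc-miR-21 (0.12) and ssc-miR-22-3p (−0.072) under quantile normalization, and ssc-miR-22-3p (−0.089) and ssc-miR-26a (−0.12) with the authors' table; ssc-miR-26a ran from −0.039 (without pregnant replicate 4) to 0.087 when an array was left out.

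Over all targets, 11 passed with normexp, 62 with scaling over all probes (55 higher, beside 11 of 24), 9 without scaling, 16 with total gene signal, 1 without a detection filter, 9 on slide 3, 2 with scan day as a block or within that scan day, and 7 to 81 when an array was left out. Same-numbered samples share only a number: the deviations of same-numbered cyclic and pregnant arrays correlated at 0.104, 0.0975, −0.177 and 0.160, and 2 of 4 correlated best with their own number. With the replicate block 26 targets and 1 arm ratio passed, and the strands kept differences of −0.50, 0.01, −0.24 and 0.37, none of which passed. Signal over background limits ssc-miR-455-5p alone among the strands.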
